A study of Mus musculus with 9 samples.

Results

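Guanylate-binding proteins are large GTPases of the dynamin superfamily whose genes are switched on by interferons. The proteins gather on bacteria and on the vacuoles of intracellular parasites, break open these compartments and pass microbial products to inflammasomes, the complexes that trigger pyroptotic cell death. Interferon-gamma acts on their genes in part through the factor IRF1, and in dendritic cells the proteins serve defence in a cell that must survive long enough to present antigen. The genes considered here were Gbp2, Gbp3, Gbp4, Gbp5, Gbp6, Gbp7, Gbp8 and Gbp9, chosen by name as members of the family. Of these 8 genes, 6 had a transcript cluster (the probes of 1 gene locus on the array) with a single gene symbol and were measured, among 19938 genes with such a cluster on the array. Gbp2 had no such cluster because its only cluster also carries Gbp2b, and Gbp6 had none because its only cluster carries 6 symbols of the family, so neither has a value here.

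The study holds 9 Affymetrix arrays of total RNA from splenic conventional dendritic cells (cDC), purified by sorting, and all mice were 129SvEv/Tac. The groups were activated cDC2 from Batf-/- Batf3-/- mice (DKO), which lack the transcription factors BATF and BATF3, activated cDC2 from WT mice, resting cDC2 from DKO mice, resting cDC1 from WT mice, and resting cDC2 from WT mice. There were 2 arrays in each cDC2 group and 1 for cDC1. Activation meant 1 h in IFN-gamma at 100 ng/ml, followed by 3 h with LPS of E. coli added at 1 µg/ml, and the labels give no age and no time in culture for resting cells. The genotype is that of the whole mouse, so cells other than dendritic cells lacked both factors as well. Nothing in the labels tells if replicate arrays are of different mice, so the p-values reflect array-to-array spread that could be technical alone.

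The arrays carried the identity their labels give. On the cDC1 array all 10 cDC1 markers were higher than in resting WT cDC2 and 7 passed the test, with Xcr1 and Clec9a, a chemokine receptor and a lectin that define cDC1, higher by 4.70 and 4.89 on the log2 scale, and all 7 cDC2 markers tested were lower and passed. Batf read 5.31 to 5.44 in the 4 DKO arrays and 6.74 to 9.07 in the 4 WT cDC2 arrays, and Batf3 read 6.43 to 7.17 and 7.58 to 9.92, so neither gene overlapped between genotypes. By limma neither passed in DKO against WT cDC2, at rest (adjusted p = 0.654 for Batf and 0.907 for Batf3) or activated (0.457 and 0.451). The genotype tests below thus did not call the deleted genes themselves. Markers of B cells averaged 4.85 to 5.15 on all arrays, with 0 of 5 above the median used as a filter, and those of T and NK cells averaged 4.56 to 4.74. Macrophage markers averaged 6.18 to 6.45 in DKO and 6.64 to 6.94 in WT cDC2, monocyte markers 6.05 to 6.65 in DKO and 6.35 to 7.07 in WT, and plasmacytoid dendritic cell markers 6.26 to 6.535 in DKO and 6.55 to 6.74 in WT. These moved with genotype, with 0 of 8, 0 of 5 and 0 of 4 genes tested past the threshold in either state, and their part in the results below was not tested. In sorted cells measured in bulk, fewer cells of a type and less RNA per cell cannot be told apart.

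The family lies in clusters on chromosomes 3 and 5. Gbp5, Gbp7 and Gbp3 follow each other on chromosome 3, ahead of Gbp2b and Gbp2, and Gbp8, Gbp9 and Gbp4 follow each other on chromosome 5, ahead of Gbp10, Gbp6 and Gbp11. The genes of a cluster are close in sequence, so probes of one gene may also bind transcripts of its neighbours, and the shared clusters named above are where the annotation records this. The RefSeq promoter table (GRCm38.p6, windows of 250 bases before and 50 after the annotated start) held windows for 4 of the 8 members, Gbp2, Gbp3, Gbp5 and Gbp7, all on chromosome 3. Those of the measured members are printed because these genes moved together on the arrays. Capitals mark matches to the interferon-stimulated response element, ISRE, bound by IRF factors (searched on both strands as GAAA, any 2 bases and GAAA), and to the interferon-gamma activated site, GAS (TTCNNNGAA, its own reverse complement). The windows lie on the plus strand at chr3:142496684-142496983 for Gbp5, chr3:142530086-142530385 for Gbp7 and chr3:142559794-142560093 for the first start of Gbp3.
Gbp5: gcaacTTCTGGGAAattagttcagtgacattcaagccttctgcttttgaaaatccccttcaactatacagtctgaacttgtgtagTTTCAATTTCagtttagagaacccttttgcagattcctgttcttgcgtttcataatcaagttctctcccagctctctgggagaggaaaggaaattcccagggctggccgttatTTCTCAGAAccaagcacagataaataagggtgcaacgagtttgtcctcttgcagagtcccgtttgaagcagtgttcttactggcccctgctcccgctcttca
Gbp7: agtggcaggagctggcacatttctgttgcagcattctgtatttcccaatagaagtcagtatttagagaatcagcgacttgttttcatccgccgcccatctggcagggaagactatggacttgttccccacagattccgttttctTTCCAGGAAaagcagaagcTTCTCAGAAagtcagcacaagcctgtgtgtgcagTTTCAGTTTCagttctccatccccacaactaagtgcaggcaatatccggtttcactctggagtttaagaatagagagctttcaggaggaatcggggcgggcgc
Gbp3: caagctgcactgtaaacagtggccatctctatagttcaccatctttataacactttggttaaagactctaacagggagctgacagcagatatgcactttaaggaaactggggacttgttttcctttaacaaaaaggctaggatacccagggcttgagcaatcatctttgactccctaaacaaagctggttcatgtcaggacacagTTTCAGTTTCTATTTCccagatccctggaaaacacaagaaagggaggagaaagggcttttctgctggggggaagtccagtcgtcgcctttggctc

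Gbp5 and Gbp7 each held 1 ISRE match and 2 GAS matches. The ISRE match of Gbp7 began 53 bases before the start and that of Gbp5 165 bases before it, while one GAS match of Gbp5 began 52 bases before its start. Gbp3 held 2 overlapping ISRE matches beginning 45 and 39 bases before its first start and 0 GAS matches. A window at a second annotated start of Gbp3 held neither motif. Of 32851 windows in the table, 3.44% held an ISRE match, 8.30% a GAS match and 0.454% both. The AP-1 site that BATF binds with JUN partners (TGANTCA, both strands) had 0 matches in these windows of Gbp3, Gbp5 and Gbp7. It had 1 in that of Gbp2 and 1 in that of Gbp2b, a family gene that is not a listed member. Of all windows 7.81% held a match, so 0 in so few windows does not set these genes apart. A match describes letters only.

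**Figure D1:**
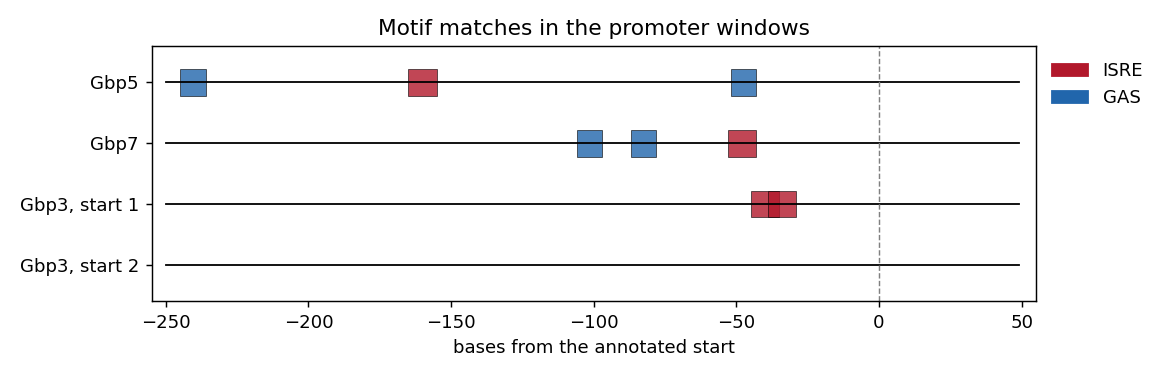
Matches to the ISRE (red) and GAS (blue) motifs in the promoter windows of Gbp5, Gbp7 and both annotated starts of Gbp3. The x axis gives bases from the annotated start (dashed line, 0), with upstream to the left. Gbp5 and Gbp7 hold 1 ISRE and 2 GAS matches each, and the second Gbp3 start holds none.

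The response to IFN-gamma and LPS was measured in each genotype as activated against resting cDC2 (2 arrays against 2). All 6 measured members were higher in every activated array than in every resting array of the same genotype. By limma 5 of 6 rose in DKO cDC2 and 5 of 6 in WT cDC2 (adjusted p under 0.05, Benjamini-Hochberg over all 10728 genes tested). Over all genes tested, 5.82% rose in DKO and 3.97% in WT, and 21% in DKO and 19.9% in WT were higher with no overlap of arrays. The median difference of the 6 members was 3.34 on the log2 scale in DKO and 2.29 in WT, against -0.09 and -0.07 over all genes. All 6 passed the filter on dim clusters, 5 of them in all 5 groups and Gbp7 in all but cDC1, so their passing did not rest on activation.

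Gbp7, which in mouse macrophages has been tied to assembly of the NADPH oxidase on phagosomes, had the largest difference of the members in DKO cells. It read 10.90 and 10.96 (log2 intensity, replicates 1 and 2) in activated DKO cDC2 and 6.43 and 6.56 in resting DKO cDC2. It read 11.06 and 11.47 in activated WT cDC2 and 7.05 and 9.07 in resting WT cDC2. The activated arrays lay close together in both genotypes, and the resting WT arrays lay 2.02 apart. The rise was 21.7-fold in DKO cells (log2 4.44 ± 0.58 SE, adjusted p = 0.00841 by limma) and 9.21-fold in WT cells (3.20 ± 0.58, adjusted p = 0.0274). By size it ranked 8th of all genes tested in DKO and 13th in WT cells.

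Gbp5, a prenylated member that in mice promotes inflammasome activation, read 12.25 and 12.30 in activated DKO cDC2 and 8.52 and 8.49 in resting DKO cDC2. In WT cDC2 it read 12.26 and 12.39 activated and 8.96 and 10.74 resting. The 4 activated arrays lay within a narrower range than the resting WT pair. Gbp5 rose 13.6-fold in DKO (3.77 ± 0.51, adjusted p = 0.00868 by limma) and 5.55-fold in WT cells (2.47 ± 0.51, adjusted p = 0.0354).

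Gbp3, which in mouse cells is recruited to the vacuole of Toxoplasma gondii, read 10.10 and 9.95 in activated DKO cDC2 and 7.16 and 7.07 in resting DKO cDC2. In WT cDC2 it read 10.41 and 10.60 activated and 7.55 and 9.25 resting. Both activated WT arrays stood above both activated DKO arrays. Gbp3 rose 7.52-fold in DKO (2.91 ± 0.49, adjusted p = 0.0157 by limma) and 4.30-fold in WT cells (2.10 ± 0.49, adjusted p = 0.0462).

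On chromosome 5, Gbp4, described in mouse cells as an inhibitor of IRF7 activation, had the largest WT difference of the members. It read 11.90 and 11.83 in activated DKO cDC2 and 8.12 and 7.76 in resting DKO cDC2, and 12.02 and 12.24 in activated WT cDC2 and 7.63 and 9.48 in resting WT cDC2. The first resting WT array lay below both resting DKO arrays and the second above both. Gbp4 rose 15.1-fold in DKO (3.92 ± 0.54, adjusted p = 0.00922 by limma) and 11.9-fold in WT cells (3.57 ± 0.54, adjusted p = 0.0171), which ranked 14th and 10th by size.

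Its neighbours Gbp8 and Gbp9 had the smallest differences of the members in both genotypes. Gbp8 read 10.73 and 11.13 in activated DKO cDC2 and 8.61 and 9.13 in resting DKO cDC2, and 10.74 and 11.16 in activated WT cDC2 and 8.57 and 9.56 in resting WT cDC2. It rose 4.16-fold in DKO (2.06 ± 0.36, adjusted p = 0.018 by limma) and 3.70-fold in WT cells (1.89 ± 0.36, adjusted p = 0.0315). The activated groups overlapped almost wholly between genotypes.

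Gbp9, another member recruited to Toxoplasma vacuoles in mouse cells, did not pass in the fit of all arrays in either genotype. It read 9.78 and 9.77 in activated DKO cDC2 and 7.63 and 8.11 in resting DKO cDC2, and 9.81 and 10.18 in activated WT cDC2 and 7.62 and 9.22 in resting WT cDC2. Its groups did not overlap either. The difference was 1.91 ± 0.49 in DKO (adjusted p = 0.0505 by limma) and 1.57 ± 0.49 in WT cells (adjusted p = 0.09), and the 95% interval of the WT difference ran from 0.40 to 2.75. The DKO value lay at the threshold, and passed with a filter at the 75th percentile, with median centring and with the mean of a gene's clusters (adjusted p = 0.0384, 0.0493 and 0.0495 by limma). It did not pass without the filter or with quantile normalization (adjusted p = 0.0852 and 0.0555 by limma). Nor did it with a trended and robust prior or with the cDC2 arrays alone (adjusted p = 0.0518 and 0.0501 by limma).

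**Figure D2:**
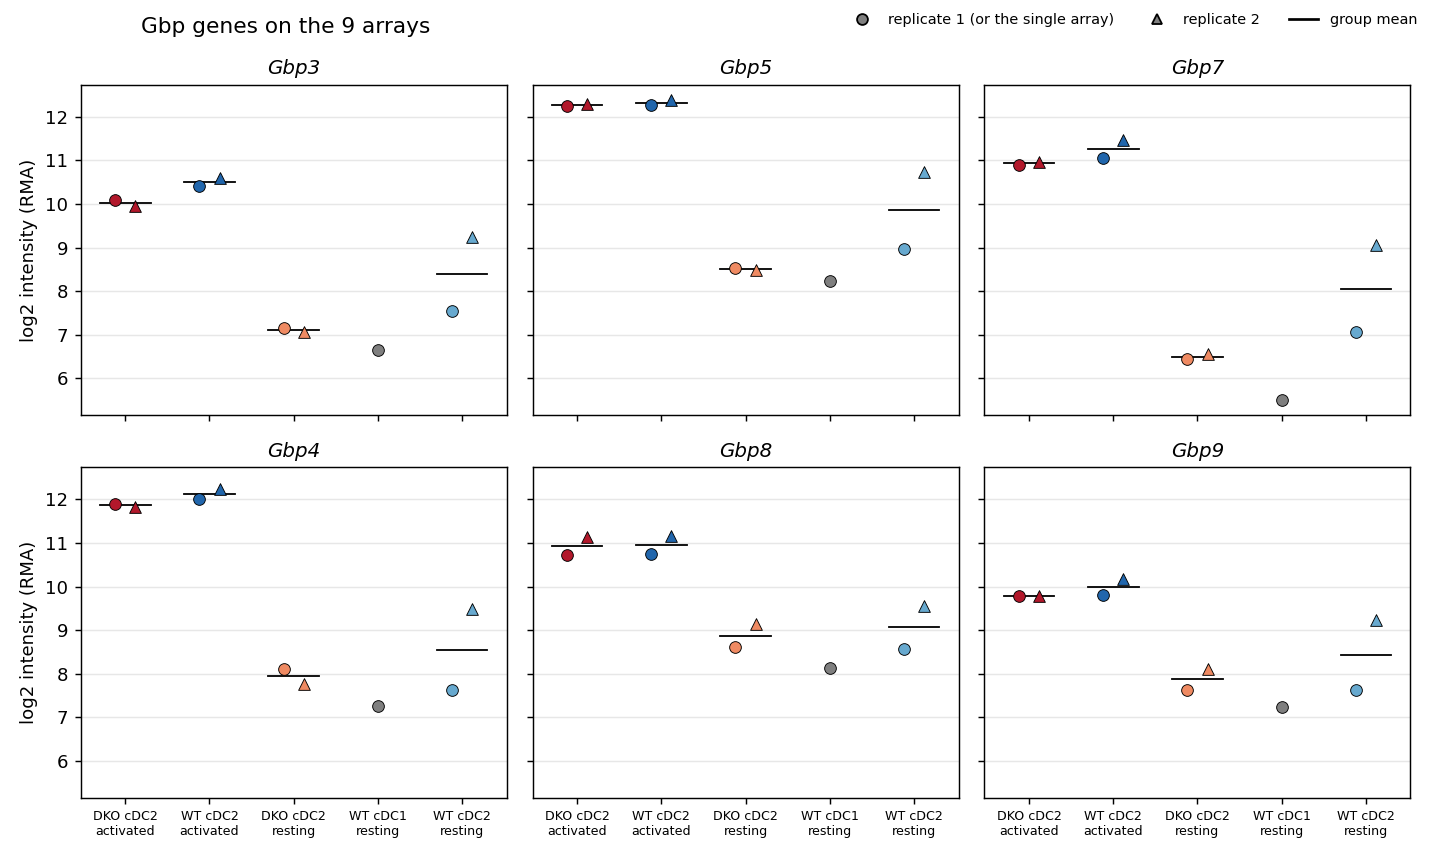
Log2 RMA intensity of the 6 measured Gbp genes (y axis) on every array by group (x axis), with circles for replicate 1 or the single cDC1 array, triangles for replicate 2 and lines for group means. Activated arrays sit above all resting arrays in each panel, and in resting WT cDC2 replicate 2 lies 0.98 to 2.02 above replicate 1.

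One array set much of the spread behind these tests. On resting WT cDC2 replicate 2, every measured member lay above replicate 1 of that group, by 0.98 for Gbp8, 1.61 for Gbp9, 1.70 for Gbp3, 1.78 for Gbp5, 1.85 for Gbp4 and 2.02 for Gbp7. In the other cDC2 groups the gap between replicates 1 and 2 of the members was at most 0.52. Over all genes tested in resting WT cDC2 the median absolute gap was 0.166, and 1.79% of genes were higher on replicate 2 by more than 1, against 5 of the 6 members. The 6 members averaged 9.55 on that array, against 7.90 on replicate 1, and the 18 type I interferon-stimulated genes measured averaged 11.22, against 9.81. The interferon-gamma signalling list averaged 9.24 against 8.92, and ubiquitin-like conjugation genes 9.14 against 9.05.

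Without that array the WT differences were 4.50 for Gbp4, 4.21 for Gbp7, 3.36 for Gbp5, 2.95 for Gbp3, 2.38 for Gbp8 and 2.38 for Gbp9. Their median was then 3.16. Without resting WT replicate 1 the median was 1.49. With a lone resting WT array left, the gap between its replicates no longer enters the spread. The count of members past the threshold is therefore not read for these fits. In DKO cells the median stayed between 3.30 and 3.37 whichever array was left out. The DKO count was 0 without resting DKO replicate 2 or activated DKO replicate 1, when 2.02% and 2.6% of all genes were called in either direction, against 13.7% with all arrays. It was 3 without resting DKO replicate 1 or activated DKO replicate 2, when 4.99% and 5.75% were called. The WT count was 0 without activated WT replicate 1 or 2, when 2.9% and 0.567% of all genes were called, against 10.5% with all arrays. It was 1 without any one DKO array, when 5.12% to 6.51% were called.

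Whether the responses differed between genotypes was tested as the DKO response minus the WT response. It was positive for all 6 members, from 0.17 ± 0.51 for Gbp8 to 1.30 ± 0.72 for Gbp5, with a median of 0.58, and 0 of 6 passed by limma (adjusted p = 1.0 for each, unadjusted p from 0.118 to 0.747). Of all genes, 0% passed, with 121 at an unadjusted p under 0.05. The 95% interval for Gbp5 ran from -0.43 to 3.03 and that for Gbp8 from -1.06 to 1.41. Without resting WT replicate 2 the median was -0.18, and Gbp3, Gbp4, Gbp8 and Gbp9 were negative at -0.040, -0.58, -0.32 and -0.47, while Gbp5 and Gbp7 were at 0.41 and 0.22. Without resting WT replicate 1 the median was 1.46, with Gbp5 at 2.19 and Gbp7 at 2.24, and 0 of 6 passed.

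**Figure D3:**
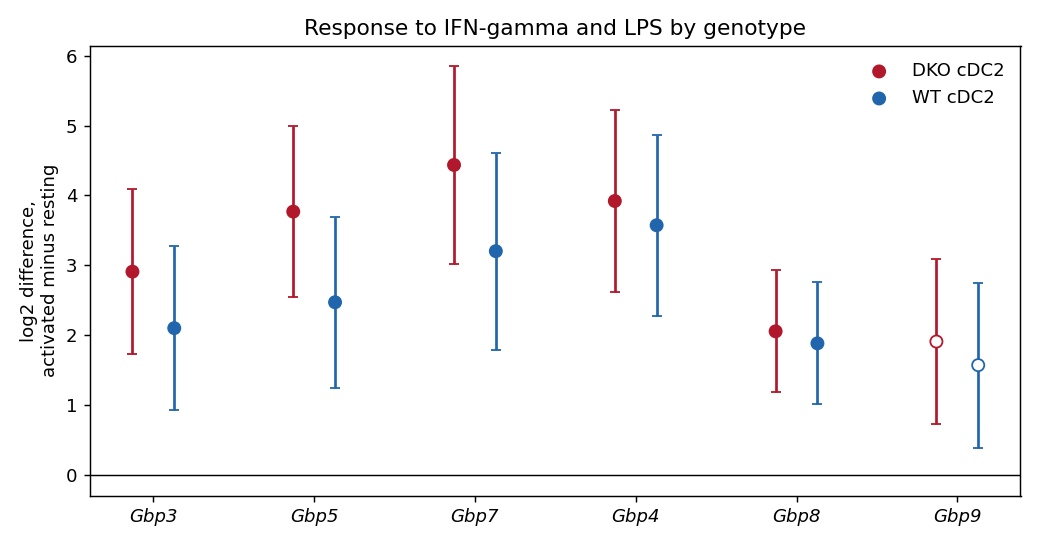
Log2 difference, activated minus resting, of each measured Gbp gene (y axis) in DKO (red) and WT (blue) cDC2, with 95% confidence intervals from the limma fit of all 9 arrays. Filled points passed an adjusted p of 0.05 and open points did not. The 2 genotypes' intervals overlap for every gene.

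The study set DKO against WT cells to find genes that depend on BATF proteins. In activated cDC2 (2 arrays against 2) no member passed the test between genotypes, and neither did Batf or Batf3. Differences, DKO minus WT, were -0.48 ± 0.49 for Gbp3, -0.33 ± 0.58 for Gbp7, -0.27 ± 0.54 for Gbp4, -0.22 ± 0.49 for Gbp9, -0.05 ± 0.51 for Gbp5 and -0.02 ± 0.36 for Gbp8. By limma 0 of 6 passed (adjusted p = 1.0 for each, unadjusted p from 0.364 to 0.952), as did 0.0186% of all genes. For Gbp3, Gbp4, Gbp7 and Gbp9 both DKO arrays lay below both WT arrays, as was so for 13.5% of all genes. The widest 95% interval, for Gbp7, ran from -1.74 to 1.08, and the narrowest, for Gbp8, from -0.90 to 0.85. The median was -0.24, against 0.01 over all genes, and lay between -0.39 and -0.08 with any 1 array left out.

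In resting cDC2 the mean of each member was again lower in DKO, and none passed the test. Gbp7 differed by -1.56 ± 0.58, Gbp5 by -1.35 ± 0.51 and Gbp3 by -1.28 ± 0.49, and for these 3 both DKO arrays lay below both WT arrays, as for 13.4% of all genes. Gbp4 differed by -0.61 ± 0.54, Gbp9 by -0.55 ± 0.49 and Gbp8 by -0.19 ± 0.36, with overlapping arrays. By limma 0 of 6 passed (adjusted p from 0.704 to 1.0), against 0.0186% of all genes, and Gbp3, Gbp5 and Gbp7 were the 3 with an unadjusted p under 0.05, as had 6.59% of all genes. The median was -0.95, against 0.01 over all genes.

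These resting differences moved with the second WT array. Without it the median was -0.09, and Gbp4, Gbp8 and Gbp9 stood higher in DKO at 0.31, 0.30 and 0.25. Gbp3, Gbp5 and Gbp7 then stood at -0.44, -0.46 and -0.56. Without the first WT array the median was -1.83, with Gbp7 at -2.57, Gbp5 at -2.24 and Gbp3 at -2.13. Either fit leaves a lone resting WT array, so the gap between the replicates no longer enters the spread. Whether members passed in these fits is therefore not read. What set the second array apart was not tested.

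**Figure D4:**
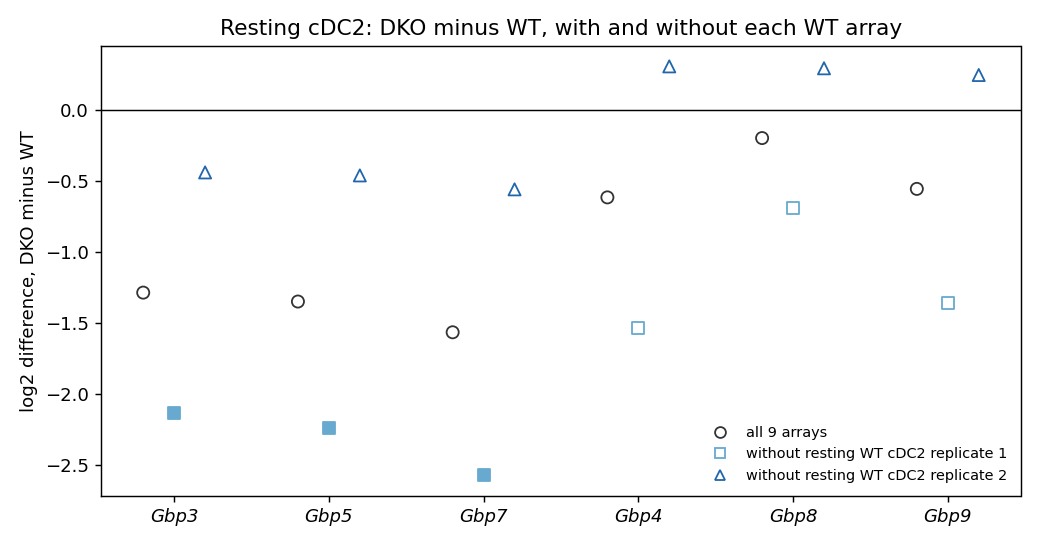
Log2 difference, DKO minus WT, of each measured Gbp gene in resting cDC2 (y axis) in the fit of all 9 arrays (circles), without resting WT replicate 1 (squares) and without resting WT replicate 2 (triangles). Filled symbols passed an adjusted p of 0.05, but with a lone resting WT array left the gap between its replicates no longer enters the spread. Without replicate 2 the values lie between -0.56 and 0.31, and without replicate 1 between -2.57 and -0.69.

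Averaged over both states (4 arrays against 4), DKO minus WT lay between -0.95 ± 0.41 for Gbp7 and -0.11 ± 0.26 for Gbp8, with a median of -0.57. By limma 0 of 6 passed (adjusted p from 0.426 to 0.925), with 1 of 6 and 10.8% of all genes at an unadjusted p under 0.05, against 0.0186% of all genes past the threshold. Gbp3 differed by -0.88, with a 95% interval from -1.71 to -0.05. These values draw on the same resting WT arrays. Without replicate 2 of them the median was -0.12, and without replicate 1 it was -1.02, in fits with a lone resting WT array.

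The cDC1 array gave the lowest value of all 9 arrays for every measured member. It read 8.24 for Gbp5, 8.13 for Gbp8, 7.27 for Gbp4, 7.25 for Gbp9, 6.65 for Gbp3 and 5.50 for Gbp7, which was below the filter level of 5.94. Against resting WT cDC2 the differences ran from -2.56 ± 0.72 for Gbp7 to -0.93 ± 0.44 for Gbp8, with a median of -1.45. By limma 0 of 6 passed (adjusted p from 0.0651 to 0.252), while 6.56% of all genes were called lower in cDC1. At an unadjusted p under 0.05 were 3 of 6 and 30.1% of all genes. The cDC1 array lay below both cDC2 arrays for 40% of all genes. With 1 cDC1 array, the test takes its spread from the cDC2 groups.

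This comparison too depended on the resting WT pair. With either WT array left out it sets 1 array against 1, and its p-values come wholly from the spread within the other groups. Whether members passed in these fits is therefore not read. Without replicate 2, Gbp7 stood at -1.55, Gbp3 at -0.90 and Gbp5 at -0.73. Gbp4, Gbp8 and Gbp9 then stood at -0.36, -0.44 and -0.37. Without replicate 1 the median was -2.36. The cDC1 array read below both resting WT arrays for every member, so leaving out either of these could not change the direction. By array values, the order of levels was the same for the 6 members at its ends, with activated cDC2 of both genotypes highest and cDC1 lowest. Resting DKO and WT cDC2 lay between these, with overlapping arrays for Gbp4, Gbp8 and Gbp9 and both DKO arrays below both WT arrays for Gbp3, Gbp5 and Gbp7.

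The family was set beside genes that act with it. Of the 3 other family genes listed, Gbp2b was tested, Gbp11 stayed below the filter and Gbp10 had no cluster of its own. Gbp2b read 10.36 and 10.21 in activated DKO cDC2 and 6.46 and 6.84 in resting DKO cDC2, and 10.45 and 10.46 in activated WT cDC2 and 6.58 and 8.74 in resting WT cDC2. Its resting WT arrays lay 2.15 apart, a wider gap than for any member. It rose by 3.63 in DKO and 2.80 in WT cells (adjusted p = 0.0164 and 0.0417 by limma).

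Of 7 other interferon-inducible GTPases tested, 6 rose in DKO and 3 in WT cells on activation, with medians of 2.86 and 1.75. Of all genes, 5.82% rose in DKO and 3.97% in WT cells. In the test of DKO response minus WT response, 0 of the 7 passed, as did 0% of all genes. Iigp1, an immunity-related GTPase that attacks parasite vacuoles in mice, rose by 5.43 in DKO and 4.70 in WT cells, and Gm4951 by 4.55 and 3.04. In DKO cells Gm12250, which codes for the immunity-related GTPase Irgb10, rose by 2.99 and Mx2, an antiviral GTPase of the dynamin superfamily, by 2.86. In WT cDC2 Gm12250 read 8.003 and 9.77 resting and 10.83 and 10.94 activated. Mx2 read 8.17 and 9.20 resting and 9.99 and 10.02 activated in WT cDC2. Irgm1, a regulator of the immunity-related GTPases, rose by 1.75 in WT cells. It was also 1 of the 6 called in DKO cDC2, where it read 8.54 and 8.52 resting and 10.81 and 10.52 activated. Of 6 large GTPases outside the interferon response, such as the mitochondrial fission and fusion proteins, 0 changed in either genotype by limma, with medians of -0.06 in DKO and -0.10 in WT cells. The nearest to the threshold were Dnm2, a dynamin of endocytosis (-0.27 in DKO and -0.21 in WT), Atl3 at 0.99 in DKO and Mfn1 at -0.18 in WT. At an unadjusted p under 0.05 there were 2 of the 6 in DKO and 1 in WT, against 31.4% and 30.4% of all genes. In either direction 13.7% of all genes were called in DKO and 10.5% in WT, so 0 of 6 does not set this list apart.

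Upstream, 9 of 15 interferon-gamma signalling and feedback genes rose in DKO and 6 in WT cells, and 1 fell in each. Of all genes, 5.82% rose in DKO and 3.97% in WT cells, and 7.9% and 6.57% fell. Irf1, the factor that carries the signal to Gbp genes, rose by 2.14 in DKO and 2.32 in WT cells (adjusted p = 0.00219 and 0.00311 by limma). Irf8, a factor of dendritic cell development, rose by 3.92 and 4.04, and the feedback inhibitor Socs3 by 2.37 and 2.50. Usp18, a brake on type I interferon receptors, rose by 1.82 in DKO cells. In WT cDC2 it read 10.76 and 11.65 resting and 12.34 and 12.37 activated. Batf2, a relative of BATF, rose by 1.28 in WT cells. It was higher on both activated DKO arrays too, at 7.86 and 7.985 against 6.19 and 6.53 at rest. Its DKO difference is not given because the 4 largest of this list were named. Of 18 type I interferon-stimulated genes, 7 rose in DKO and 1 in WT cells, with medians of 1.63 and 0.87. Against 5.82% and 3.97% of all genes, the WT count lies near its share. The antiviral gene Ifit2 rose by 3.18 in DKO and 1.50 in WT cells. Cmpk2, Rsad2 and Oasl1 rose by 3.75, 2.69 and 1.60 in DKO cells. In WT cDC2 Cmpk2 read 9.50 and 10.25 resting and 12.35 and 11.7 activated. Rsad2 read 11.81 and 12.18 resting and 13.04 and 12.93 activated in WT cDC2. Oasl1 read 12.01 and 12.44 resting and 12.94 and 13.04 activated there. No gene of these lists passed in a DKO against WT comparison or in the test of DKO response minus WT response. Of all genes, 0.0186% and 0% did. At rest all 18 type I interferon-stimulated genes were lower in DKO, with a median of -0.99. By limma 7 of the 18 had an unadjusted p under 0.05 there, against 6.59% of all genes. Of the interferon-gamma list, 6 of 15 were higher in resting DKO, with a median of -0.09. On the cDC1 array all 18 were below the resting WT cDC2 mean, with a median of -1.76. By limma 6 were called lower, against 6.56% of all genes.

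Downstream, Casp4, which codes for the caspase that senses LPS in the cytosol, rose by 2.48 in DKO and 1.81 in WT cells (adjusted p = 0.00426 and 0.0113 by limma). Casp1 rose by 0.79 in DKO cells, and these were the 2 calls in DKO and the 1 in WT among 9 inflammasome and pyroptosis genes. Of all genes, 5.82% rose in DKO and 3.97% in WT cells. In the test of DKO response minus WT response, 0 of the 9 passed, as did 0% of all genes. In WT cDC2 Casp1 read 9.04 and 9.57 resting and 9.95 and 10.02 activated. Of 14 genes of ubiquitin-like conjugation, the system that guides GTPases to vacuoles, 1 rose and 1 fell in DKO and 2 fell in WT cells. Of all genes, 5.82% rose in DKO, 7.9% fell in DKO and 6.57% fell in WT. Counts of 1 and 2 genes do not set this list apart. Trim21 rose by 1.77 in DKO, Atg5 fell by 0.44 in DKO and by 0.47 in WT, and Gabarapl2 fell by 0.36 in WT. In WT cDC2 Trim21 read 8.065 and 8.99 resting and 9.30 and 9.815 activated. In DKO cDC2 Gabarapl2 read 9.49 and 9.42 resting and 9.24 and 9.25 activated. Of 5 prenylation enzymes, which attach the lipid anchor of some members or process the protein end that carries it, 0 changed by limma in either genotype. None had an unadjusted p under 0.05, against 31.4% of all genes in DKO and 30.4% in WT. Rce1 stood at -0.38 in DKO and -0.44 in WT and Fnta at -0.12 in both.

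**Figure D5:**
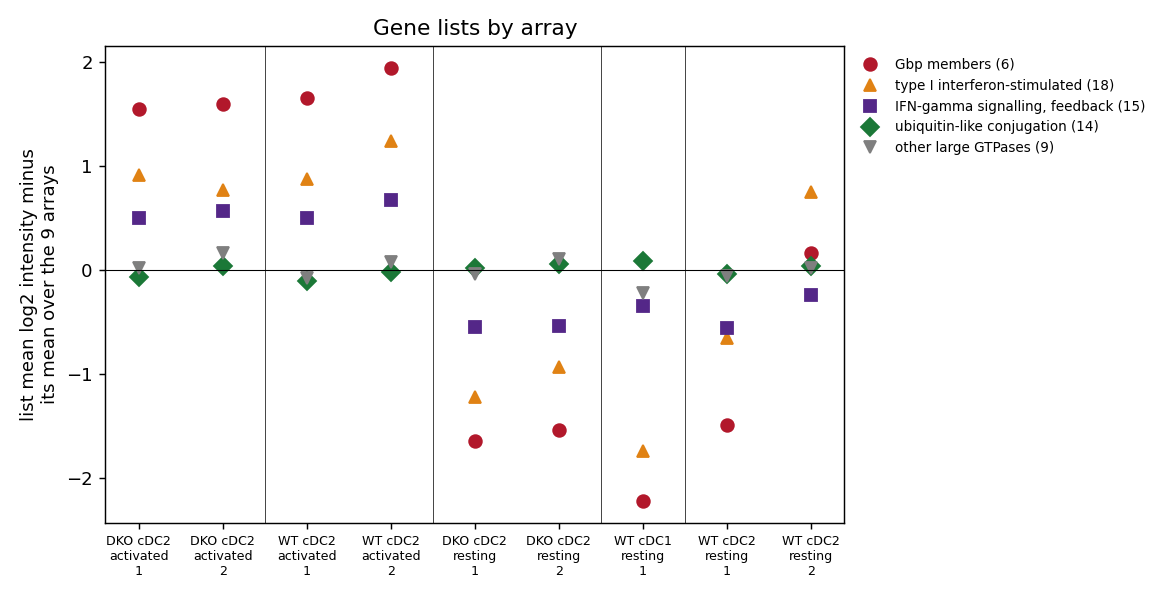
Mean log2 intensity of each gene list on each array, minus that list's mean over the 9 arrays (y axis), with arrays ordered by group and replicate number (x axis). The Gbp members and the type I interferon-stimulated genes stand high on all activated arrays and on resting WT cDC2 replicate 2 among the resting ones, while ubiquitin-like conjugation genes and other large GTPases stay near 0.

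The genes whose pattern over the 9 arrays was most like the members' mean were found by the root mean square difference of gene-centred log2 values. Outside the family the nearest was Gm12250 at 0.199, against a median of 1.67 over all genes tested. It was nearer than any member to that mean, of which Gbp5 at 0.217 and Gbp3 at 0.223 were the closest and Gbp7 at 0.646 the farthest. Next came Gm12185 at 0.264, Mlkl, which codes for the executor of necroptosis, at 0.349, Cst7, a cysteine protease inhibitor, at 0.402, Pml, the organiser of nuclear bodies, at 0.471, and Ifi214 at 0.474. Gm12250 read 10.83 and 10.86 in activated DKO and 10.83 and 10.94 in activated WT cDC2, 7.95 and 7.755 in resting DKO cDC2, 7.32 in cDC1 and 8.003 and 9.77 in resting WT cDC2. Cst7, in contrast to the members, read 7.55 and 7.90 on the resting WT cDC2 arrays.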

How the data were processed

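Biotinylated cDNA was hybridised to Affymetrix gene arrays, per the labels' protocols. The authors deposited linear intensity values made with Affymetrix Expression Console and RMA, which corrects background, normalizes between arrays and gives 1 value per transcript cluster, per the submitters' processing notes (versions not given in the sources used here). Array medians were 53.4 to 55.6, so a change in total RNA would not be visible. All values were converted to log2. Of 28853 clusters, 21789 carried 1 gene symbol in the platform annotation, 1621 several and 5443 none. Only the first were used, with the highest-mean cluster for the 999 genes that had several. A gene was tested when its mean in any group passed the median cluster value (5.94 on the log2 scale, 61.3 linear), which 10728 of 19938 did. Tests used limma 3.58.1 (R 4.3.3), 1 fit over the 9 arrays with a mean per group and 4 residual degrees of freedom, two-sided, with Benjamini-Hochberg adjustment over all genes tested and a threshold of 0.05. Errors are standard errors (SE). The fit was tested on simulated data. The number of arrays limits the precision. The genes, gene lists and tests were chosen with earlier results of these data known. The 8 family members are all accounted for. From each list came its count and up to 4 genes of largest change past the threshold, or else up to 2 of smallest p, and the 6 most similar genes outside the family were named. Alternatives are given in the closing section.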

Additional observations from a re-analysis of the deposited data

How the results depend on the processing

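Without the filter on dim clusters, 3 members passed in the WT response, against 5 with it. The other settings that keep all cDC2 arrays moved no count of members past the threshold by over 1.5 times. They were a filter at the 75th percentile, quantile normalization, median centring, the mean of a gene's clusters, a trended and robust prior, the cDC2 arrays alone and the replicate block, of which the last pair give no cDC1 value. With 1 cDC2 array left out at a time, from 0 to 6 members passed in the DKO response, with 2.02% to 11.9% of all genes called, and from 0 to 6 in the WT response, with 0.567% to 6.51% called. From 0 to 3 passed in the resting genotype comparison, with 0% to 0.0558% of all genes called. In the mean of both states from 0 to 2 passed, with 0.0186% to 0.0372% called. In the cDC1 comparison from 0 to 5 passed, with 7.43% to 10.7% called in either direction. In the activated genotype comparison and the interaction 0 passed, as did 0% of all genes. Same-numbered arrays deviated together across genes in all 6 pairs of groups (r from 0.454 to 0.695), a hint from the data, since the labels pair nothing. With the replicate number as a block, 6 members passed in each response, with Gbp9 at 1.91 in DKO (adjusted p = 0.0070) and 1.57 in WT (adjusted p = 0.0147), and 0 in the other comparisons. The block called 38.8% of all genes in DKO and 36% in WT, against 14% and 10.8% for the same arrays without it. In the fits with an array left out some members changed sign, none with a value past the threshold after the change. In resting DKO against WT, Gbp4 ranged from -1.54 to 0.31, Gbp8 from -0.69 to 0.30 and Gbp9 from -1.36 to 0.25. In activated cells, Gbp5 ranged from -0.11 to 0.012 and Gbp8 from -0.23 to 0.19. In the mean of both states, Gbp4 ranged from -0.90 to 0.022, Gbp8 from -0.35 to 0.14 and Gbp9 from -0.79 to 0.017. In the interaction, Gbp5 ranged from 0.41 to 2.19, Gbp7 from 0.22 to 2.24, Gbp3 from -0.040 to 1.66, Gbp4 from -0.58 to 1.27, Gbp8 from -0.32 to 0.66 and Gbp9 from -0.47 to 1.14. Fits with an array left out have fewer samples, and in a group of 1 the lone array is assumed to vary like the others. Without a resting WT array the members' gap in that group leaves the spread, so the counts of those fits are not read as support.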

Other observations

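On resting WT cDC2 replicate 2, where the Gbp genes lay 0.98 to 2.02 above replicate 1, the 15 interferon-gamma signalling genes tested differed by -0.41 to 1.03, with a median of 0.29. Of these, 10 were higher on replicate 2, 1 of them by more than 1. The 18 type I interferon-stimulated genes had a median gap of 1.35, with 18 higher and 10 by more than 1, and the 7 other interferon-inducible GTPases a median gap of 0.93, with 7 higher and 3 by more than 1. Irf1 read 7.99 on that array and 8.004 on replicate 1, Irf8 read 7.65 and 8.06, and Socs3 read 7.12 and 6.92. Iigp1 read 4.77 and 4.38, against 9.91 and 9.93 in activated DKO and 8.70 and 9.84 in activated WT cDC2. Gm12250 read 9.77 on replicate 2 and 8.003 on replicate 1. Irgm1 read 9.49 on replicate 2 and 8.57 on replicate 1, Casp4 read 8.70 and 7.998, and Trim21 read 8.99 and 8.07. These genes were picked for naming here after their values were seen, from those named in the report.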
